A study of Homo sapiens with 12 samples.

Results

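The ZNF genes were studied as a family in 12 RNA-seq libraries of liver cancer cells. Members were the listed genes whose symbol is ZNF followed by a number, and there were 188 of them among the 8842 genes listed for every library. Of the 188, 71 lay on chromosome 19 and 117 on other chromosomes. HepG2, a hepatoblastoma-derived line, and LM3, a metastatic hepatocellular carcinoma line, were each transfected with an siRNA against the lncRNA FASRL (siFASRL) or with a negative control siRNA (siNC), and RNA was taken 48 h later. Each of the 4 groups had 3 libraries. Which of the designed FASRL siRNAs was used for these libraries is not given in the sources used here. FASRL itself was not analysed here, so its own level is not set beside the labels. The authors state that they checked the efficiency of the FASRL knockdown in both lines. Nothing in the labels says that the replicates came from separate cultures, so the p-values below measure the spread between these libraries, which may be technical.

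Zinc finger proteins of the C2H2 type hold short loops folded around a zinc ion, and tandem arrays of these loops read DNA in a sequence-dependent way. Many human members also carry a KRAB domain, which binds the corepressor TRIM28 and through it histone methyltransferases and heterochromatin proteins, and a large part of this family sits in gene clusters on chromosome 19. Other ZNF symbols belong to unrelated proteins with a role in RNA, ribosomes or the mitotic spindle, so the name does not stand for a shared task.

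The deposited values are RSEM expression levels with 2 decimals, not read counts. Whether they are FPKM or TPM is not stated in the sources used here, and the sequencing depth behind a value is unknown. Hepatocyte markers were checked first. Of 16 markers, 13 were listed, and their summed value was 4534 to 5013 in HepG2 siNC, 2634 to 2701 in HepG2 siFASRL, 15.5 to 20.2 in LM3 siNC and 6.92 to 8.10 in LM3 siFASRL. SERPINA1 was the most abundant of them in HepG2. ALB, the main plasma protein of hepatocytes, was at 0 to 0.62 in the 6 LM3 libraries, whereas the hepatocyte factor HNF4A had values of 6.17 to 14.4 there. Listed fibroblast markers (5 of 6) summed to 70.6 to 72.2 in HepG2 siNC and 32.3 to 35.4 in HepG2 siFASRL, and to 13.2 to 15.1 and 4.69 to 5.86 in LM3. The 1 listed leukocyte marker, LYZ, was at 77.2 to 86.4 and 42.7 to 49.9 in HepG2 and at 1.73 or less in LM3. VWF, the 1 listed endothelial marker, did not exceed 0.35. These sums were lower with siFASRL, but single markers varied. APOA2, an apolipoprotein, had 681, 800 and 791 with siFASRL and 639, 682 and 569 with siNC in HepG2, and LYZ overlapped between the groups in LM3 (0.77 to 1.42 against 1.36 to 1.73). The part of these markers in the ZNF results was not tested. Fewer cells that express a marker and less of its RNA per cell cannot be told apart in such libraries of cultured lines.

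Summed over the 188 listed members, ZNF values were higher after siFASRL in both lines. ZNF genes outside the list were not seen. In HepG2 the 188 values summed to 1283, 1299 and 1318 with siFASRL and to 1088, 1098 and 1085 with siNC. In LM3 the sums were 1630, 1576 and 1604 with siFASRL and 1352, 1352 and 1354 with siNC. No siNC library reached the sum of any siFASRL library of its line. The same held for the sum over all listed genes. It was 347211 to 355094 with siFASRL and 333193 to 338379 with siNC in HepG2. In LM3 it was 346884 to 348573 and 316534 to 321859. Of the sum of all listed values, the family made up 0.371% ± 0.0055 (SD, n = 3) with siFASRL and 0.325% ± 0.0041 with siNC in HepG2, and 0.461% ± 0.0090 and 0.423% ± 0.0034 in LM3. The mean of the library medians of the ZNF values was 3.90 with siFASRL and 3.03 with siNC in HepG2, and 5.19 and 4.24 in LM3. The median over all listed genes lay the other way, at 11.2 or less with siFASRL and 11.8 to 11.9 with siNC in HepG2, and at 10.1 to 10.2 and 11.1 to 11.3 in LM3.

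Gene by gene, limma compared siFASRL with siNC inside each line on the log2(value + 1) scale, which understates the change of low genes. A gene was tested when 3 or more of the 6 libraries reached a value of 1, and was called at an adjusted p under 0.05. This filter let 172 of the 188 genes through in each line, 164 of them in both, and 8 passed in neither. ZNF229, ZNF280A, ZNF540, ZNF624, ZNF709, ZNF844, ZNF850 and ZNF880 were tested in neither line. ZNF19, ZNF71, ZNF141, ZNF365, ZNF488, ZNF501, ZNF736 and ZNF808 did not pass in HepG2 alone, and ZNF25, ZNF385B, ZNF391, ZNF467, ZNF517, ZNF697, ZNF831 and ZNF883 in LM3 alone. The mean values of untested genes reached 0.828 in HepG2 and 0.882 in LM3. Of those tested, 10 in HepG2 passed only through siFASRL and 8 only through siNC, and in LM3 these numbers were 3 and 5. Such a gene is no longer tested when any library of that group is left out, as holds for ZNF239, ZNF468 and ZNF616 (siFASRL) and ZNF385B and ZNF467 (siNC) in HepG2 and for ZNF821 (siNC) in LM3. The counts below are therefore descriptions of the tested members and not of all members.

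In HepG2, 120 ZNF genes (69.8% of those tested) were called higher and 40 (23.3%) lower after siFASRL. Over all 8144 genes tested, 44.8% were called higher and 44.3% lower, so the ZNF genes were called higher more often and lower less often than the listed genes in general. The median log2 fold change was 0.29 over the ZNF genes and 0.10 over all genes tested. Large changes were few on this scale. Of the ZNF genes, 2 were called higher and 2 lower with a log2 fold change of at least 1 in size, beside 3.61% higher and 6.79% lower over all genes. These ZNF counts depended on the processing. They were 13 and 5 with a pseudocount of 0.1, 12 and 1 with quantile normalization, and 7 and 2 after centring on the gap described below. siFASRL and siNC values did not overlap for 158 ZNF genes (91.9%), and 89.6% of all tested genes had no overlap either. The share of ZNF genes without overlap was thus near the background, while the balance of directions was further from it. The gap described below bears on this balance.

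In LM3, 95 ZNF genes (55.2%) were called higher and 41 (23.8%) lower, against 33.9% and 43.5% of the 7483 genes tested. Their median log2 fold change was 0.23, whereas the median over all genes was -0.06. With the fold threshold, 2 ZNF genes were higher and 1 was lower, beside 1.42% and 6.2% of all genes. These ZNF counts were 4 and 0 with median-of-ratios scaling, 9 and 0 with quantile normalization, and 3 and 3 with a pseudocount of 0.1. Values did not overlap for 140 ZNF genes (81.4%), beside 80.1% of all genes. Higher calls outnumbered lower ones among the ZNF genes under each scaling, but the background in LM3 turned. It had 40.9% higher and 38% lower with median-of-ratios scaling (median 0.03) and 37.5% and 34.7% with quantile normalization (median 0.03). With quantile normalization the calls were 124 higher and 15 lower in LM3, which is 89.2% higher among the called genes instead of 69.9%. In HepG2 higher calls made up 75% of the called ZNF genes as deposited and 83.1% with quantile normalization, beside 50.3% and 51.9% of all called genes. The HepG2 background with quantile normalization was 43.7% higher and 40.6% lower. The plot of effect distributions shows the shift in both lines.

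**Figure D1:**
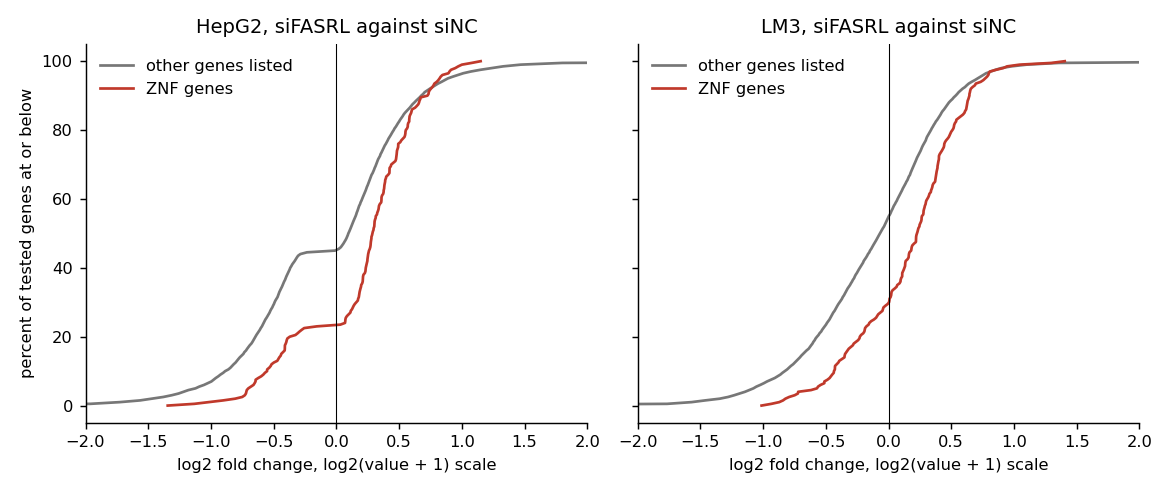
Cumulative percent of tested genes (vertical axis) at or below each log2 fold change of siFASRL against siNC (horizontal axis, log2(value + 1) scale), for ZNF genes in red and all other listed genes in grey. The ZNF curve lies to the right over most of its length, with a median of 0.29 over 172 genes in HepG2 and 0.23 over 172 genes in LM3, but to the left at the upper end (99th percentile 1.0004 against 1.469 in HepG2 and 1.0446 against 1.1012 in LM3), and the flat stretch in HepG2 is the range with few listed genes.

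The list of 8842 genes carries a limit of its own. HepG2 effects between -0.24 and -0.02 were almost absent, with 28 of 6367 genes of a mean value of at least 5, while 833 of 5937 genes lay in the same range in LM3. How the genes were chosen for listing is not stated in the sources used here. In HepG2, all 40 tested ZNF genes with an effect below 0 were called lower, as were 3607 of 3636 such genes over the whole list. In LM3 these numbers were 41 of 51 and 3254 of 4059. With so few small falls listed, a HepG2 effect below 0 nearly always meant a lower call. The balance of higher and lower calls in HepG2 thus depends on this gap in the list, and how far was not tested. With HepG2 values rescaled so that this gap lay at 0, the median of all genes shifted by 0.12, and 131 ZNF genes were called higher and 40 lower in HepG2, beside 54.9% higher and 43.6% lower over all genes. Relative to the median of all genes, the ZNF median stood 0.19 higher as deposited and 0.17 higher after this shift in HepG2. With quantile normalization the ZNF median was 0.52 in HepG2 and 0.45 in LM3, which is 0.47 and 0.43 above that of all genes, against 0.19 and 0.29 as deposited.

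Of the 10 genes with the largest rise among those without overlap, 6 in HepG2 and 7 in LM3 lay on chromosome 19, where 71 of the 188 listed ZNF genes lie. ZNF473 (GeneID 25888, chr19:50026005-50048776, GRCh38), a protein of the U7 snRNP machinery that processes replication-dependent histone pre-mRNA, had values of 8.02, 7.26 and 7.54 in HepG2 siFASRL and 2.79, 2.94 and 2.90 in siNC, and of 6.63, 6.49 and 6.35 against 3.43, 3.41 and 3.54 in LM3. Its log2 fold change was 1.15 (SE 0.057, limma adjusted p = 1.59e-07) in HepG2 and 0.75 (SE 0.047, adjusted p = 2.58e-06) in LM3, and all siFASRL libraries lay above all siNC libraries in both lines. ZNF227 rose from 2.77, 2.82 and 3.20 to 7.42, 7.08 and 7.16 in HepG2, a log2 fold change of 1.07 (SE 0.061), and by 0.76 in LM3. ZNF146, which consists of little but finger repeats, had 43.5, 44.6 and 44.2 with siFASRL and 22.5, 21.2 and 22.1 with siNC in HepG2, and 66.2, 62.6 and 68.7 against 36.2, 33.9 and 31.4 in LM3. The 2 lines gave it nearly the same log2 fold change, 0.97 and 0.94. Exons of ZNF473, ZNF227 and ZNF146 overlap coding exons on the opposite strand, and the sources do not state that strand was used in counting, so their values are uncertain in this respect. ZNF317 had no such overlap, and rose by a log2 fold change of 0.97 in HepG2 and 0.79 in LM3.

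In LM3 the largest rise was that of ZNF45, at 15.9, 14.4 and 15.6 with siFASRL and 4.96, 5.29 and 5.21 with siNC. The log2 fold change was 1.4 (SE 0.056, limma adjusted p = 3.63e-07), and in HepG2 it was 0.82 (SE 0.059), from values of 2.43, 2.31 and 2.24 to 5.19, 4.71 and 4.69. ZNF239, on chromosome 10, rose by 1.28 on the log2 scale in LM3 (12, 11.6 and 11.4 against 3.92, 3.94 and 4.84) and by 0.73 in HepG2, where it stayed at 1.98 or less. ZNF616 rose by 0.95 in LM3 and 0.77 in HepG2, ZNF777 by 0.88 and 0.66, and ZNF787 by 0.81 and 0.55. ZNF468 rose by 0.80 in LM3, but 99.1% of its 50-base words also occur in other coding genes, so this value is uncertain.

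Lower values were led by ZNF367 on chromosome 9. It had 2.28, 2.69 and 2.82 with siFASRL and 7.95, 8.11 and 8.29 with siNC in HepG2, a log2 fold change of -1.34 (SE 0.067, limma adjusted p = 1.70e-07), and 6.93, 6.45 and 6.93 against 11.9, 12.3 and 12.1 in LM3, a log2 fold change of -0.75 (SE 0.050). The groups were far apart in both lines. ZNF695 fell by 1.10 on the log2 scale in HepG2 and by 0.51 in LM3. ZNF362 (-0.84 and -0.85) and ZNF641 (-0.72 and -0.92) fell in HepG2 and LM3, as the plot of values by library shows. The interaction of ZNF641 (-0.20, limma adjusted p = 0.0389) was called, but the call was lost without HepG2 siFASRL replicate 1 or 3, HepG2 siNC replicate 2, LM3 siFASRL replicate 1 or 3, or LM3 siNC replicate 1 or 2 (adjusted p of 0.0536 to 0.0912). The largest fall in LM3 was that of ZNF821, from 2.44, 2.95 and 2.84 to 0.82, 0.93 and 0.81, a log2 fold change of -1.01 (SE 0.065), against -0.45 in HepG2. It is the 1 gene past the fold threshold on the lower side in LM3, with 2.44 as the lowest siNC value. Without LM3 siFASRL replicate 1 or 3 the ZNF821 LM3 log2 fold change was -0.9995 or -0.9955, just inside that threshold, and without any 1 of the LM3 siNC libraries it was not tested. With quantile normalization its HepG2 call was lost (limma adjusted p = 0.0539). ZNF385B (-0.98), ZNF467 (-0.76) and ZNF517 (-0.72) fell in HepG2 and did not pass the filter in LM3.

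**Figure D2:**
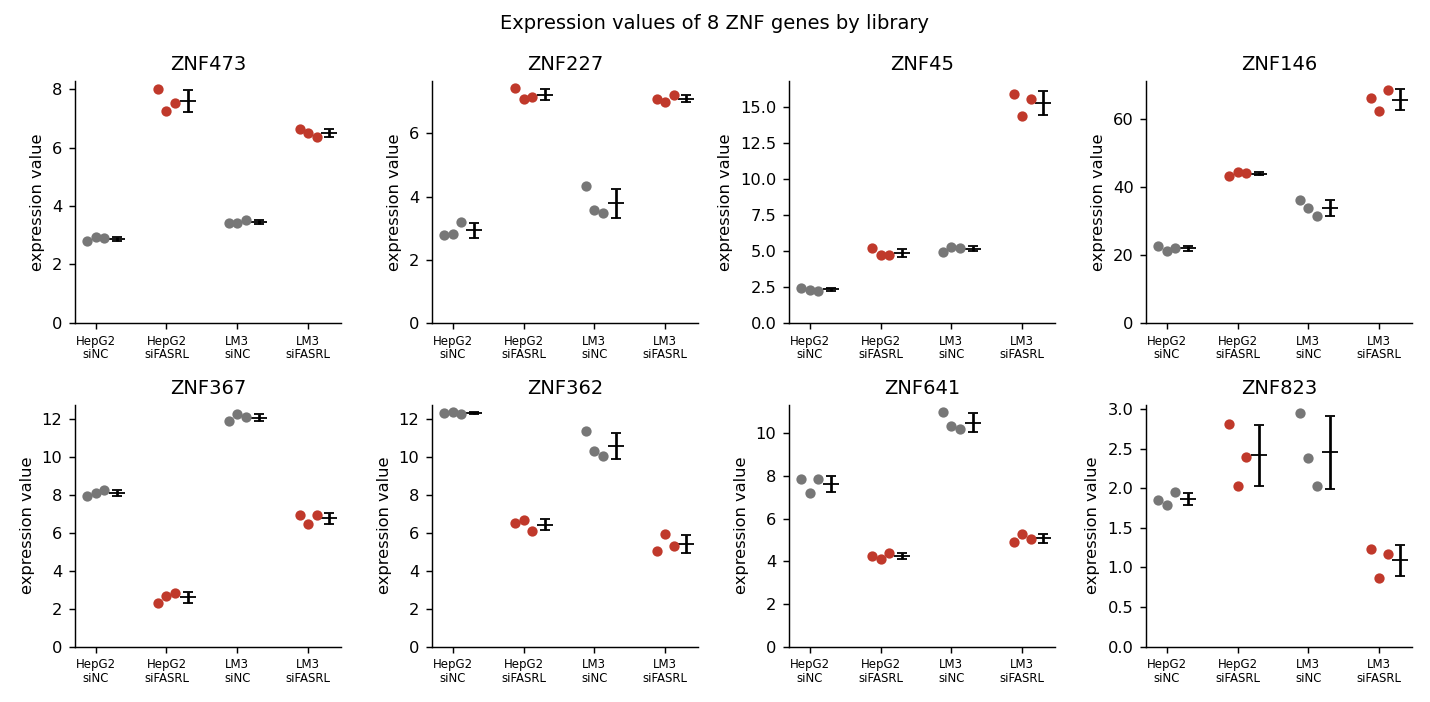
Expression values (vertical axis, as deposited, from 0) of 8 ZNF genes in each of the 12 libraries, with siNC in grey and siFASRL in red, and the mean with its SD (n = 3) as a black bar beside each group. ZNF473, ZNF227, ZNF45 and ZNF146 were higher and ZNF367, ZNF362 and ZNF641 lower with siFASRL in both lines, while ZNF823 was higher in HepG2 and lower in LM3.

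Members with known roles moved in several directions. Of the 41 genes of known role looked up by symbol, 25 were listed. ZNF143, an activator of snRNA and many protein-coding promoters, rose in both lines (log2 fold change 0.64 in HepG2 and 0.30 in LM3). ZNF202, known as a repressor of lipid metabolism genes, had values of 4.12, 3.98 and 4.14 with siFASRL and 2.39, 2.06 and 2.14 with siNC in HepG2, and rose by 0.67 there and by 0.62 in LM3. ZNF410, which activates CHD4, rose by 0.73 and 0.64, and 2 bases of its exons overlap a coding exon on the opposite strand. ZNF281, studied in pluripotency and epithelial-mesenchymal transition, rose by 0.92 and 0.44. ZNF274, which recruits the methyltransferase SETDB1 to the ends of other ZNF genes, rose by 0.47 and 0.49. ZNF263 (0.42 and 0.29) and the oncogene ZNF217 (0.25 and 0.39) also rose in both lines.

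Among members tied to ribosomes, ZNF622, a maturation factor of the large subunit, rose by 0.90 in HepG2 (34.1, 33.3 and 33.0 against 17.7, 16.1 and 18.5) and by 0.37 in LM3. ZNF593, also a large subunit maturation factor, had effects of 0.57 and 0.63. Its exons overlap an opposite coding exon by 769 bases, while its longest transcript has 698 bases, so these values are uncertain. ZNF598, a ubiquitin ligase of stalled ribosomes, had an effect of 0.27 in HepG2, which was called, and of 0.11 in LM3, which was not; their difference was not called either. The most abundant member, the spindle protein ZNF207, had 74.6, 82.2 and 79.4 with siFASRL and 69.4, 64.5 and 68.9 with siNC in HepG2. Its log2 fold change was 0.22 (limma adjusted p = 0.00737) there and 0.00 in LM3 (adjusted p = 0.962), and with quantile normalization the HepG2 value was 0.06 and not called.

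Some members of known role were lower. ZNF292 fell in both lines (-0.71 and -0.40), although its LM3 call was lost with quantile normalization (-0.09). Also lower in both were ZNF318 (-0.59 and -0.57), ZNF385A (-0.55 and -0.57) and the hypoxia-induced ZNF395 (-0.61 and -0.72). ZNF445, a KRAB protein that maintains genomic imprints, had -0.31 in HepG2 and -0.18 in LM3, but with quantile normalization the values of ZNF445 were -0.07 and 0.04 and neither was called. No call was made in either line for ZNF24, the DBIRD subunit ZNF326 or ZNF592. For ZNF148 (HepG2 log2 fold change 0.17), ZNF532 (0.13 in HepG2), ZNF580 (0.25 in LM3) and ZNF644 (0.17 in LM3), the call depended on single libraries. Without HepG2 siFASRL replicate 3 the limma adjusted p of ZNF148 was 0.17 and that of ZNF532 was 0.104, and it was also above 0.05 without HepG2 siFASRL replicate 2, siNC replicate 1 or siNC replicate 3 for both and without siNC replicate 2 for ZNF532. For ZNF580 it was 0.145 without LM3 siFASRL replicate 1, 0.0764 without replicate 2 and 0.0679 without LM3 siNC replicate 1, where the ZNF580 LM3 value was 0.15. ZNF644 lost its call without LM3 siFASRL replicate 1 (0.0735) or 2 (0.0668), or without LM3 siNC replicate 2 (0.079) or 3 (0.0794).

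Both lines were then set side by side over the 164 ZNF genes tested in each. They share no control library. Of these, 85 (51.8%) were called higher in both lines, 32 (19.5%) lower in both, and 4 (2.4%) in opposite directions. Over the 7349 genes tested in both lines, 29.6% were higher in both, 36% lower in both and 5.31% opposite. The effects had the same sign for 153 ZNF genes (93.3%) and for 83.8% of all genes. Across the ZNF genes, Pearson's r between the lines was 0.806 and Spearman's rho 0.773, and over all genes these were 0.794 and 0.797. These are correlations across genes, which are not independent replicates, on a list that lacks most genes in the HepG2 gap. No ZNF gene passed a log2 fold change of 1 in the same direction in both lines on the log2(value + 1) scale. That scale shrinks the change of low genes, and the plain ratio of group means was over 2 in both lines for ZNF45 (2.09 in HepG2 and 2.97 in LM3), ZNF239 (2.85 and 2.76) and ZNF616 (2.72 and 2.68). In HepG2 the ratios of ZNF239 and ZNF616 are uncertain, since each siNC value was below 1 and both genes passed the filter only through siFASRL.

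**Figure D3:**
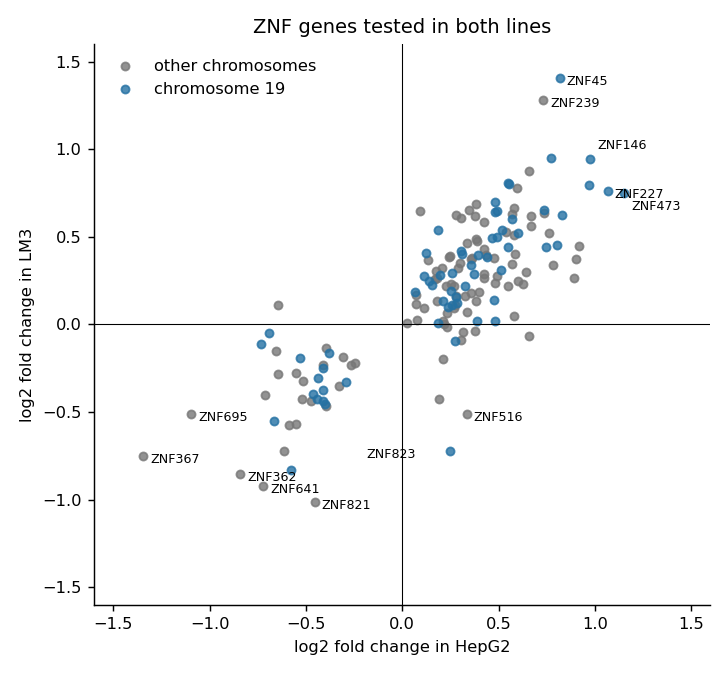
Log2 fold change of siFASRL against siNC in HepG2 (horizontal axis) and LM3 (vertical axis) for the 164 ZNF genes tested in both lines, with genes on chromosome 19 in blue and others in grey. Most genes lie in the upper right, where 85 were called higher in both lines, and ZNF823 and ZNF516 lie below 0 in LM3 and above 0 in HepG2.

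Whether the response differed by line was tested as an interaction, LM3 effect minus HepG2 effect, with all 12 libraries in the fit. An interaction was called for 61 of 180 ZNF genes, 36 with a lower and 25 with a higher effect in LM3, beside 46.7% of the 8285 genes tested. The 4 genes with opposite calls were ZNF823, ZNF516, ZNF521 and ZNF503, each higher in HepG2 and lower in LM3. ZNF823 had 2.81, 2.03 and 2.40 with siFASRL and 1.85, 1.79 and 1.95 with siNC in HepG2, and 1.23, 0.87 and 1.17 against 2.95, 2.38 and 2.03 in LM3. Its interaction was -0.97 (limma adjusted p = 1.27e-04). ZNF516, an activator of brown fat genes, had an interaction of -0.85, and ZNF521, a cofactor in blood and neural progenitors, one of -0.62. With quantile normalization the LM3 values of ZNF516 (-0.12), ZNF521 (-0.03) and ZNF503 (-0.18) no longer passed the test. ZNF503, a developmental repressor, rested on single libraries, since its LM3 call was lost without siFASRL replicate 2 or 3 or without siNC replicate 2 or 3, and its HepG2 call without the siFASRL replicates 2 or 3 or siNC replicates 1 or 3. The limma adjusted p was then 0.106 to 0.162 in LM3 and 0.0738 to 0.138 in HepG2, and without HepG2 siNC replicate 3 the ZNF503 HepG2 value went from 0.21 to 0.13.

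Some other called differences lay in genes called in the same direction in both lines, such as ZNF45 (interaction 0.59) and ZNF367 (0.59), and others in genes called in a single line. ZNF697 was 3.03, 2.94 and 2.93 with siFASRL and 1.28, 1.28 and 1.11 with siNC in HepG2, and did not pass the filter in LM3, where it was at 0.61 or less. Its interaction of -0.99 was the largest. ZNF33B fell in HepG2 (-0.64) and had 0.11 in LM3 (limma adjusted p = 0.0684), with an interaction of 0.75, and ZNF354A rose in HepG2 (0.66) and had -0.07 in LM3, with an interaction of -0.73. Of the 50-base words of these genes, 7.2% and 12.6% also occur in other genes, which leaves some doubt about each. ZNF614 fell in HepG2 by 0.69, had -0.05 in LM3 and an interaction of 0.64. With quantile normalization the ZNF614 LM3 value was 0.33 and called higher (limma adjusted p = 0.0037).

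On chromosome 19, 63 of 71 ZNF genes were tested in HepG2 and 65 in LM3. In HepG2, 44 (69.8%) were called higher and 14 (22.2%) lower, with a median log2 fold change of 0.30. ZNF genes on other chromosomes had 76 higher (69.7%) and 26 lower (23.9%) of 109, with a median of 0.28. In LM3 the chromosome 19 counts were 38 higher (58.5%) and 14 lower (21.5%), with a median of 0.28, and 57 (53.3%) and 27 (25.2%) of 107 elsewhere, with a median of 0.22. The shares on and off chromosome 19 were thus close in HepG2 and a few percentage points apart in LM3, and the difference was not tested. Other listed genes on chromosome 19 were more evenly split. Of 460 tested in HepG2, 203 were higher and 192 lower (median 0.11), and of 420 in LM3, 168 were higher and 161 lower (median 0.03). Without the filter on low values lower calls outnumbered higher ones, with 212 higher and 229 lower in HepG2 and 166 and 195 in LM3. With quantile normalization the chromosome 19 ZNF genes had 48 higher and 8 lower in HepG2 and 50 and 5 in LM3. Other chromosome 19 genes then had 189 higher and 182 lower, and 160 and 147, and the shares over all genes were 43.7% and 40.6% in HepG2 and 37.5% and 34.7% in LM3.

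Position within chromosome 19 was described by grouping listed ZNF genes whose starts lie under 1 Mb apart. The largest groups held 18 genes between 55.58 and 58.28 Mb and 16 genes between 51.57 and 53.58 Mb (GRCh38, RefSeq). Of the first, 11 of 17 tested genes were higher and 4 lower in HepG2, and 13 of 18 were higher and 3 lower in LM3. In the second, 13 of 14 were higher and 1 lower in HepG2, and 10 of 15 higher and 1 lower in LM3. In shares, higher calls made up 64.7% and 72.2% of the first and 92.9% and 66.7% of the second in HepG2 and LM3, beside 69.8% and 55.2% of the ZNF genes and 44.8% and 33.9% of all genes. The second group holds genes that passed the HepG2 filter only through siFASRL, such as ZNF28 (1.24, 1.14 and 1.09 against 0.65, 0.88 and 0.72). Its HepG2 share thus rests partly on genes let through by the group where they are high, and no conclusion is drawn from it. A further group of 7 genes, between 11.6 and 12.61 Mb, had 4 of 5 tested genes higher in HepG2 and 0 higher and 2 lower in LM3, with an interaction called for 3 of its 5, beside 46.7% of all genes. The clusters were singled out after their values were seen.

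Sequence features were compared next. Of the 188 genes, 102 matched the core of the KRAB A-box at 7 or more of 10 fixed residues in their longest reading frame, and 86 did not. In HepG2, 63 of 90 tested matching genes were higher and 22 lower (median 0.31), and 57 and 18 of 82 others (median 0.28). In LM3 the numbers were 50 and 23 of 93 (median 0.22), and 45 and 18 of 79 (median 0.24). The shares did not separate the KRAB genes from the rest. Finger number separated them more. Genes with 10 or more fingers, the median of the family, had 77.7% higher and 17.0% lower in HepG2, against 60.3% and 30.8% of genes with fewer. In LM3 these shares were 59.1% and 19.4% against 50.6% and 29.1%. The split was not tested. Over all genes tested, 44.8% were higher and 44.3% lower in HepG2, and 33.9% and 43.5% in LM3. The plot of shares by gene group compares these sets.

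**Figure D4:**
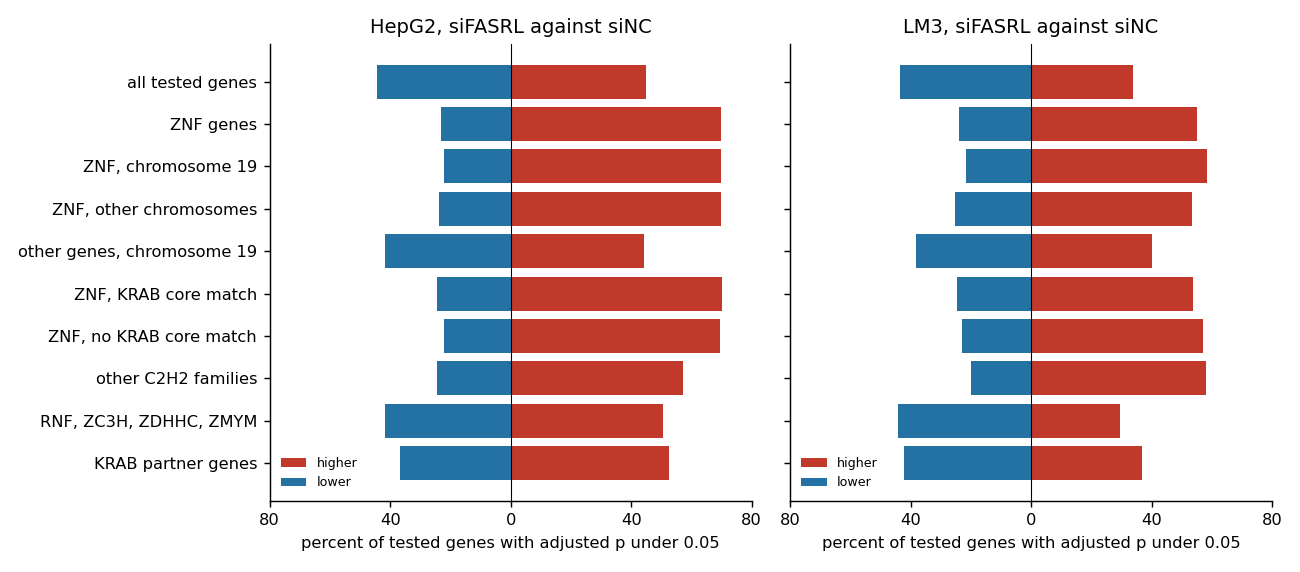
Percent of tested genes called higher (red, to the right) and lower (blue, to the left) with siFASRL in HepG2 and LM3, for all tested genes, the ZNF genes and groups of them, other genes on chromosome 19, other zinc finger families and KRAB partner genes. ZNF genes had 69.8% higher and 23.3% lower in HepG2, and 55.2% and 23.8% in LM3.

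Promoters were taken from RefSeq (GRCh38.p14) as 250 bases before and 50 after the gene start, and 160 of the 188 genes had one. The ETS-type word CCGGAAG, searched on both strands, was present in 38.1% of the ZNF promoters, in 18% of the 7111 promoters of listed genes and in 10.7% of all 27305 promoters. CCAAT was found in 46.2%, 36.1% and 35.7%, and TATAAA in 1.9%, 6.3% and 12%. These are descriptions of the letters in the windows and name no bound factor. Called shares were alike with and without CCGGAAG. In HepG2, 71.4% of 56 tested genes with the word were higher and 67.4% of 89 without it, and in LM3 55.0% of 60 and 58.1% of 86. Over all genes tested, 44.8% were higher in HepG2 and 33.9% in LM3. Of the genes with the largest changes, 5 that rose and 1 that fell carry the word upstream of the start. The total of such genes with a promoter is not given, so these counts do not compare the directions. Shown are the 2 of the 5 with the largest change and the 1 that fell. Capitals mark CCGGAAG, and each window reads 5′ to 3′ on the minus strand, on which the gene lies.
ZNF239: aggggcccgcgCCGGAAGtgggcgtggttc
ZNF622: taacttccgacgtgtgCCGGAAGtttcctc
ZNF641: gccgcagagccCCGGAAGcgggcggggatt
They lie at chr10:43574638-43574667, chr5:16465801-16465830 and chr12:48350946-48350975, upstream of the gene start and outside the gene, and the word begins 40, 14 and 45 bases before the start.

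Other zinc finger families gave a frame for these counts. ZBTB, ZSCAN, ZKSCAN, ZFP, KLF and SP genes, also of the C2H2 type once the CCCH genes ZFP36L1 and ZFP36L2 are set aside, had 28 higher and 12 lower of 49 in HepG2 (median 0.23) and 29 and 10 of 50 in LM3 (median 0.20). RNF, ZC3H, ZDHHC and ZMYM genes, which carry other zinc-binding folds, had 34 higher and 28 lower of 67 in HepG2 (median 0.15) and 20 and 30 of 68 in LM3 (median -0.01). Of all genes tested, 44.8% were higher and 44.3% lower in HepG2, and 33.9% and 43.5% in LM3. The families with other zinc-binding folds differed among themselves. Of 9 ZC3H genes, 7 were higher and 1 lower in HepG2 and 6 and 1 in LM3, while of 15 ZDHHC genes 4 were higher and 9 lower in HepG2 and 2 and 11 in LM3. Level and transcript length were also compared. Among genes with an siNC mean of 2 to 5, where 69 ZNF genes fell in HepG2, 72.5% of ZNF genes and 35.3% of other genes were higher, and in LM3 53.7% and 19.2%. This band had the widest gap of 5 in HepG2. At a mean of 10 to 20 the shares were 60% and 45.2% in HepG2 and 56.5% and 32.4% in LM3. At 20 or more they were 50% and 47.7% in HepG2, for 8 ZNF genes, and 58.3% and 40.7% in LM3. At a median transcript length of 2500 to 3500 bases the shares were 86.1% and 41.9% in HepG2 and 60.5% and 30.6% in LM3. Above 5000 bases they were 47.1% and 40.8% in HepG2, and 33.3% and 25.5% in LM3. Lower calls made up 41.2% of ZNF genes and 47.8% of other genes of that length in HepG2, and 40% and 49.8% in LM3.

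KRAB proteins work through partners, and 19 of these genes were listed. In HepG2, 10 were higher and 7 lower, and in LM3 7 were higher and 8 lower. These shares, 52.6% and 36.8% in HepG2 and 36.8% and 42.1% in LM3, were near those of all tested genes (44.8% and 44.3%, and 33.9% and 43.5%). TRIM28, the shared corepressor, had an effect of 0.24 in HepG2 and 0.38 in LM3, but the call was lost without HepG2 siNC replicate 1 (limma adjusted p = 0.0561) or 3 (0.052) and without LM3 siFASRL replicate 1 (0.0556). Without LM3 siNC replicate 1, the lowest of its group at 122.7 beside 167.3 and 169.7, the TRIM28 LM3 value was 0.23. With quantile normalization TRIM28 was not called in either line (0.07 and 0.24). The histone deacetylase HDAC2 rose by 0.42 and 0.50, and the methyltransferases SUV39H1 (0.29 and 0.24) and SUV39H2 (0.34 and 0.51) also rose. Higher calls in both lines were also made for CHD3 (0.43 and 0.17), FAM208A (0.37 and 0.20) and MORC2 (0.44 and 0.20). SMARCA5 (0.27), EHMT1 (0.18) and CBX1 (0.14) were called higher in HepG2 alone. The CBX1 call was lost without HepG2 siFASRL replicate 2 or 3 or any 1 HepG2 siNC library. CBX5, a heterochromatin protein, fell (-0.54 and -0.41), as did the demethylase KDM1A (-0.32 and -0.47), UHRF1 (-0.49 and -0.35), which guides maintenance methylation, and DNMT3A (-0.41 and -0.64), a DNA methyltransferase. EHMT2 was lower in both lines too (-0.389 and -0.265). DNMT3B differed most between the lines. It fell in LM3 by 1 log2 unit (SE 0.050, limma adjusted p = 8.49e-07) and had 0.13 in HepG2 (adjusted p = 0.0748), with an interaction of -1.13. ATF7IP2 fell by 1.05 in HepG2 and by 0.25 in LM3, but with quantile normalization the ATF7IP2 LM3 value was 0.16 and not called. ATF7IP, a binding partner of SETDB1, fell by 0.25 in both lines. The HepG2 call of ATF7IP was lost without siFASRL replicate 2 (limma adjusted p = 0.14) or 3 (0.152) or siNC replicate 1 (0.151) or 3 (0.14), and neither line kept it with quantile normalization (-0.06 and -0.02).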

How the data were processed

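RNA-seq values of 12 libraries were used, with groups and replicate numbers taken from the sample labels. The authors filtered reads with SOAPnuke (1.5.2), used HISAT2 (2.0.4) and Bowtie2 (2.2.5), and computed levels with RSEM (1.2.12). The deposited values are treated as a signal with 2 decimals, since FPKM or TPM is not stated. The authors used DESeq2 (1.4.5), a count model that these values do not allow. The submitters' processing notes name hg19, while chromosome accessions in the tables belong to GRCh38, which was used for positions. The design named reference proteins, and longest reading frames of GENCODE 29 transcripts were used in their place. A further 6 columns that repeat LM3 values were left out.

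limma (3.58.1, R 4.3.3) was fitted on log2(value + 1), per line and in 1 fit of all 12 for the interaction, with Benjamini-Hochberg adjustment over every gene tested. Genes needed 3 libraries at a value of 1 or more. The added 1 makes fold changes of low genes smaller than they are. Named genes were, per line, the 10 lower and 10 higher ZNF genes with the largest change among those called without overlap, the 8 largest interactions, genes called in opposite directions, the 10 most abundant ones, 41 genes of known role and the KRAB partner list. The members and lists were chosen with earlier results of these data known. Alternatives covered the pseudocount, filter, scaling, centring, joint fit, adjustment, trend, replicate block and leaving out each library. Tables and plots were made with Python (3.11.15), pandas (2.3.3) and matplotlib (3.10.9).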

Additional observations from a re-analysis of the deposited data

Results flagged for a closer look

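The response to siFASRL differed between LM3 and HepG2, by the limma interaction over all 12 libraries, for 30 of the 58 named ZNF genes. Some of the 58 were chosen for a large interaction, so this count describes the named genes only; the difference was called for 61 of 180 ZNF genes tested and for 46.7% of all genes. The LM3 log2 fold change was below that of HepG2 for ZNF143 (-0.35), ZNF207 (-0.21), ZNF227 (-0.31), ZNF267 (-0.63), ZNF281 (-0.47), ZNF335 (-0.25), ZNF354A (-0.73), ZNF473 (-0.40), ZNF488 (-0.40), ZNF503 (-0.41), ZNF516 (-0.85), ZNF521 (-0.62), ZNF622 (-0.53), ZNF641 (-0.20), ZNF664 (-0.45), ZNF697 (-0.99), ZNF821 (-0.56) and ZNF823 (-0.97). It was above that of HepG2 for ZNF33B (0.75), ZNF45 (0.59), ZNF239 (0.55), ZNF292 (0.31), ZNF367 (0.59), ZNF385B (0.85), ZNF467 (0.47), ZNF517 (0.50), ZNF532 (0.24), ZNF581 (0.62), ZNF614 (0.64) and ZNF695 (0.59). Values in brackets are LM3 effect minus HepG2 effect. ZNF385B, ZNF467, ZNF517 and ZNF697 did not pass the filter in LM3 and ZNF488 did not pass it in HepG2, so their differences compare a measured line with a line near the floor. ZNF239 passed it in HepG2 only through siFASRL, and its plain ratio of group means, given above, was not larger in LM3. Its difference therefore holds on the log2(value + 1) scale only and is uncertain. Of the 50-base words of ZNF581, 16.1% also occur in other genes, which leaves doubt about its values. The call of ZNF207 was lost without HepG2 siFASRL replicate 2 or 3, HepG2 siNC replicate 2, LM3 siFASRL replicate 2 or LM3 siNC replicate 3 (limma adjusted p up to 0.0681). That of ZNF641 was lost without HepG2 siFASRL replicate 1 or 3, HepG2 siNC replicate 2, LM3 siFASRL replicate 1 or 3, or LM3 siNC replicate 1 or 2 (up to 0.0912 by limma). That of ZNF335 held without HepG2 siFASRL replicate 1, HepG2 siNC replicate 2 or LM3 siNC replicate 1 and was lost without any other library (up to 0.108 by limma). Among the KRAB partner genes the lines differed for ATF7IP2 (0.80), CHD3 (-0.26), DNMT3B (-1.13), EHMT1 (-0.25), FAM208A (-0.17), MORC2 (-0.24) and SMARCA5 (-0.33), of which FAM208A kept its call without HepG2 siFASRL replicate 1, LM3 siFASRL replicate 3 or LM3 siNC replicate 1 and lost it without any other library (limma adjusted p up to 0.0935). The causes of these differences were not tested.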

How the results depend on the processing

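The majority of higher calls among ZNF genes held in both lines under every one of the 22 alternatives, and the limits below are those that moved a count by over 1.5 times. All alternatives used the same list of genes, so the listing itself was not varied. Bonferroni adjustment left 30 higher and 16 lower ZNF genes in HepG2, 22 and 9 in LM3, 12 and 4 on chromosome 19 in HepG2, 10 and 2 in LM3, 12 higher and 5 lower in both lines, 0 in opposite directions and 6 interactions, because it sets a stricter threshold; over all genes it left 12.2% higher and 19.9% lower in HepG2 and 6.8% and 15.4% in LM3. Under quantile normalization, lower calls numbered 26 in HepG2 and 15 in LM3, 8 and 5 on chromosome 19, and 11 in both lines, and genes past the fold threshold 12 higher and 1 lower in HepG2 and 9 and 0 in LM3. The pseudocount of 0.1, which enlarges changes of low genes, gave 13 higher and 5 lower past the fold threshold in HepG2 and 3 lower in LM3. Centring HepG2 on the gap gave 7 higher, and median-of-ratios scaling 4 higher and 0 lower in LM3. Without one library the count of lower genes past the fold threshold in LM3 ran from 0 to 1. The shares of all genes past the fold threshold are not given for these alternatives, so these fold counts describe the ZNF genes only. Without a filter, which covers all 188 members, 126 were higher and 49 lower in HepG2 and 95 and 47 in LM3, beside 43.2% and 46.2%, and 29.1% and 41.7%, of all genes.

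With quantile normalization the ZNF445 LM3 value (0.0392) and the ATF7IP2 LM3 value (0.16) changed sign, and the cause was not tested. Of 4945 values of named genes under the alternatives, 225 lost and 65 gained a call, and 89 that were not called changed sign, of which the ZNF614 LM3 value was then called under quantile normalization (0.33). Replicate numbers were not used to pair the libraries in the main fits. Correlations of same-numbered deviations ran from -0.2 to 0.371 in HepG2 and from -0.175 to 0.118 in LM3. Numbers 1 and 2 in HepG2 (0.319 and 0.371) and number 2 in LM3 (0.118) were matched best by their own number, and the others by another number. With 3 libraries per group, this check cannot exclude pairing or a shared batch. Under the replicate block 120 ZNF genes were higher and 40 lower in HepG2, and 93 and 40 in LM3, beside 46% and 44.4%, and 33.1% and 42.9%, of all genes. Depth is unknown, so no counting error is given.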
